A study of Xenopus tropicalis with 52 samples.

Results

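Mix1, Mixer, Bix1.1, Sox17a and Sox17b.1 are the Mix, Bix and Sox17 factors, the transcription factors at the centre of endoderm formation in the frog embryo. Every gene row named mix1 or mixer, or whose name starts with bix1 or sox17, was taken. This rule found 5 rows, the same 5 in both count tables, among 21750 gene rows in the table of Series 1 and 2 and 20193 in that of Series 3, of which 19372 are shared. The rule reads names and no expression value, though the family itself was picked with earlier results of these data known. RefSeq also lists bix1.2 and sox17b.2 in this species, with 0 rows each in either table, and these were not analysed here.

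Whole Xenopus tropicalis embryos, cultured at 23°C and untreated, were collected every 30 min after fertilisation in 3 series, each from a different female, and sequenced as pools. Series 1 held 7 polyA+ libraries from 0 to 3.0 h post fertilisation (hpf), and Series 2 held 17 polyA+ libraries from 2.5 to 9.5 hpf, both from pools of 50 embryos. In Series 2 the 4.5 and 6.5 hpf points had 2 biological replicates each, and no other point was replicated. Series 3 held 19 polyA+ libraries from 0 to 9.0 hpf and, on each full hour up to 8.0 hpf, 9 libraries depleted of ribosomal RNA (Ribo-Zero). Both kinds were made from split total RNA of pools of 10 embryos. Series 3 came from another frog colony and was made with other kits, so that clutch, colony, pool size and library chemistry cannot be told apart between the series. Its cell cycles lasted 25 min against 20 min in the other series, and its times were therefore also given multiplied by 0.8. The labels name no strain, allele or agent for any group. Total counts per library ranged from 4539916 to 33907947 (n = 52), and were 4539916 to 17998536 in the 19 polyA+ libraries of Series 3 against 22791007 to 33907947 in the 17 of Series 2. Levels below are normalised reads, which are counts per 25000000 counts of a library without its ribosomal row. They are not divided by transcript length, so levels of different genes were not ranked. In pooled embryos, fewer cells that express a gene and less RNA per cell cannot be told apart.

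In Xenopus, maternal VegT, a T-box factor stored in the vegetal part of the egg, switches on Nodal ligands in vegetal cells. Nodal signals act through Smad2 and the DNA-binding partner FoxH1, and Mix and Bix homeodomain factors and Sox17 HMG-box factors are among the genes that respond. Mixer is known to activate Sox17, and Sox17 proteins go on to turn on the genes of the definitive endoderm.

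The genes of the family lie in groups. In the RefSeq annotation of the assembly UCB_Xtro_10.0, mixer, mix1, bix1.2 and bix1.1 lie in this order on chromosome 5, with lin9 before mixer and 3 unnamed loci between bix1.2 and bix1.1. On chromosome 6, sox17a, sox17b.1 and sox17b.2 lie next to each other between mrpl15 and rp1. The counts were made on older gene models, so no coordinates are given. Reads that mapped to more than 1 gene had been discarded, and the levels of such neighbouring copies may therefore be too low. Reads were 39 bases long in Series 1 and 2 and 50 in Series 3, so this loss can differ between the series. Bix1.2 and sox17b.2 have 0 rows in either table. Whether their reads were counted on bix1.1 or sox17b.1, whose levels could then be too high, was not tested.

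**Figure D1:**
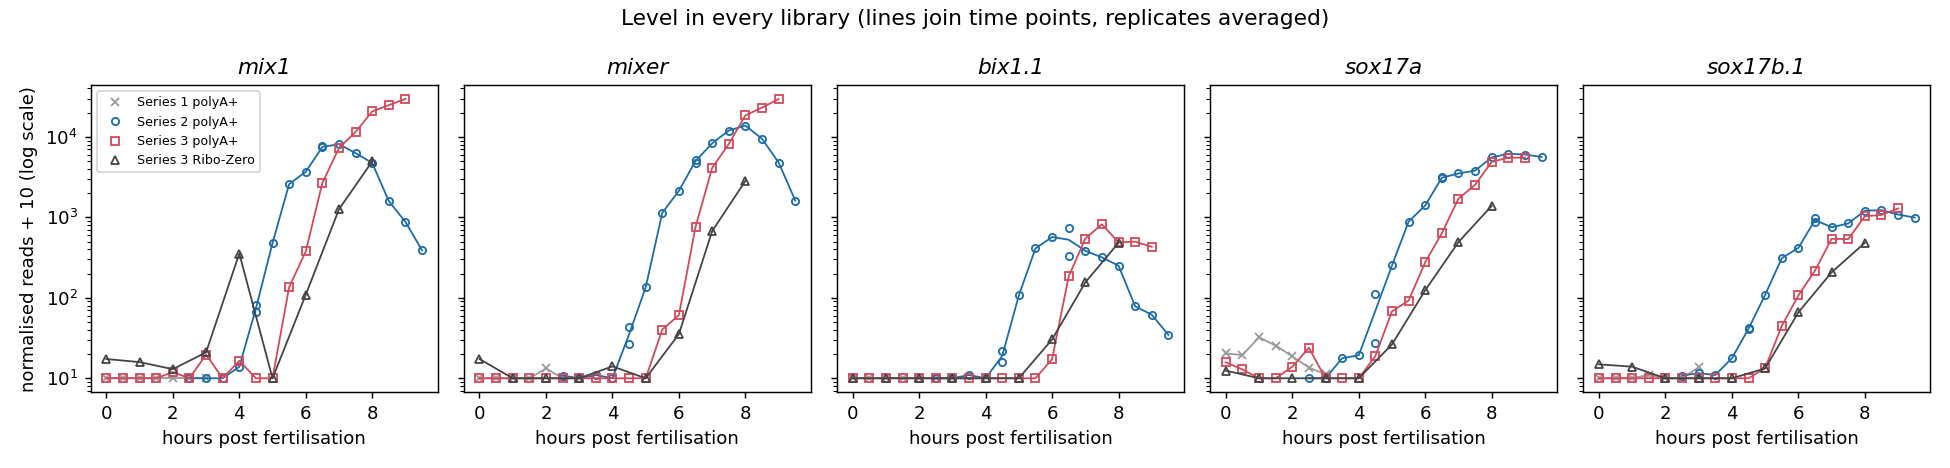
Normalised reads plus 10 (log axis) of each of the 5 genes against hours post fertilisation, 1 symbol per library, with lines through the time points of Series 1, 2 and 3 polyA+ and Series 3 Ribo-Zero. Before 4.0 hpf no gene exceeds 22.3 normalised reads, and mix1 in the Ribo-Zero library at 4.0 hpf stands alone at 345 normalised reads.

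Counts of these genes were low in the earliest libraries, up to 3.0 hpf in Series 1, 3.5 hpf in Series 2 and 4.5 hpf in Series 3 polyA+. Mix1 and bix1.1 had 0 counts in all 7 libraries of Series 1, which allows up to 3.10 to 4.03 normalised reads depending on the library. Mixer reached 3 counts in 1 of those libraries and sox17b.1 at most 3 counts. Sox17a, an HMG-box activator of endodermal genes, was counted in every Series 1 library, at 10.4, 9.41, 22.3, 15.5, 8.70, 3.58 and 1.22 normalised reads from 0 to 3.0 hpf. These are 9, 7, 18, 15, 8, 3 and 1 counts. In Series 3 polyA+ libraries to 4.5 hpf its highest value was 10 counts, at 2.5 hpf, and it stood at 0 counts in 5 of these 10 libraries. In the 4 Ribo-Zero libraries to 3.0 hpf it had 1 count in all, where mix1 was counted in each, with 1 to 3 counts and 10 in all. Mixer, bix1.1 and sox17b.1 had 0 counts in all 10 Series 3 polyA+ libraries to 4.5 hpf.

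Mix1, a paired-type homeodomain factor first known as an immediate early gene of mesoderm and endoderm induction in Xenopus, rose and fell within the time covered by Series 2. Its level was 0 from 2.5 to 3.5 hpf and 3.88 at 4.0 hpf. It was 55.8 and 71.6 in the replicates at 4.5 hpf, 469 at 5.0 hpf, 2580.4 at 5.5 hpf and 3678 at 6.0 hpf. It stood at 7395 and 7608 at 6.5 hpf and was highest, at 8097, at 7.0 hpf. Both replicate pairs lay close together beside the rise between them. From there the level was 6268 at 7.5 hpf, 4736 at 8.0 hpf, 1575 at 8.5 hpf, 868 at 9.0 hpf and 378 at 9.5 hpf, so that the last level was 21.4-fold below the highest. Between 8.0 and 8.5 hpf came the steepest single step of this decline.

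Mixer, the homeodomain factor known to activate Sox17, followed later. Its level was under 1 normalised read to 4.0 hpf, 33.5 and 16.7 in the replicates at 4.5 hpf, 125 at 5.0 hpf, 1131 at 5.5 hpf and 2125 at 6.0 hpf. At 6.5 hpf it was 5220.3 and 4785, and it then went on through 8316 at 7.0 hpf and 11994 at 7.5 hpf to its highest level of 13808 at 8.0 hpf. Mix1 was by then already past its own maximum. Mixer was at 9478 at 8.5 hpf, 4795 at 9.0 hpf and 1607 at 9.5 hpf, 8.59-fold below its highest level.

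Bix1.1, a Mix-related homeodomain factor that responds to VegT and to TGF-beta signals in Xenopus, was at most 811 normalised reads in any library. Its level was 12.01 and 5.83 at 4.5 hpf (14 and 7 counts), 96.9 at 5.0 hpf, 400.3 at 5.5 hpf and 560.1 at 6.0 hpf. The replicates at 6.5 hpf were far apart, at 317 and 718, and the point of its highest level depends on which of them is used. It was 374 at 7.0 hpf, 307 at 7.5 hpf, 241 at 8.0 hpf, 68.4 at 8.5 hpf, 51.5 at 9.0 hpf and 24.6 at 9.5 hpf. The last level was 22.7-fold below that at 6.0 hpf.

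Sox17a kept its level where the homeodomain genes lost theirs. It was 7.75 at 3.5 hpf and 9.31 at 4.0 hpf, and 17.2 and 101 in the replicates at 4.5 hpf, the widest relative gap of any member there. It was 242 at 5.0 hpf, 875 at 5.5 hpf, 1396 at 6.0 hpf, 3065 and 3134 at 6.5 hpf, 3499 at 7.0 hpf, 3799 at 7.5 hpf and 5544 at 8.0 hpf. The highest level was 6170.5 at 8.5 hpf, with 6023 at 9.0 hpf and 5625 at 9.5 hpf. Between the highest and the last level lay a factor of only 1.097.

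Sox17b.1, its neighbour and a partner in the same role, ran alongside at lower counts. It was 7.76 at 4.0 hpf, 30.9 and 31.6 at 4.5 hpf, 98.7 at 5.0 hpf, 300.4 at 5.5 hpf and 408 at 6.0 hpf. It was 869 and 962 at 6.5 hpf, 744 at 7.0 hpf, 829.5 at 7.5 hpf, 1200.0 at 8.0 hpf and 1218 at 8.5 hpf, then 1074 and 984 at 9.0 and 9.5 hpf. The highest level was 1.24-fold above the last.

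All 5 genes were higher at 6.5 than at 4.5 hpf in Series 2, the only comparison with replicates at both points. These replicates were pools from the same female, so the p-values do not cover differences between clutches. The change in mixer was 7.64 on the log2 scale (SE 0.26, adjusted p = 1.01e-07), or 200.2-fold. Mix1 changed by 6.88 (SE 0.19, adjusted p = 4.68e-08), or 118-fold. Bix1.1 changed by 5.85 (SE 0.51, adjusted p = 3.25e-05), sox17a by 5.70 (SE 0.54, adjusted p = 5.23e-05) and sox17b.1 by 4.87 (SE 0.25, adjusted p = 8.82e-07). The size of some changes hung on single libraries. Sox17a, 52.0-fold with all libraries, was 30.3-fold without replicate 1 and 182-fold without replicate 2 at 4.5 hpf. Bix1.1, 57.5-fold with all libraries, was 35.3-fold without replicate 2 at 6.5 hpf and 85.5-fold without replicate 1 at 4.5 hpf. For every member, both libraries at 6.5 hpf lay above both at 4.5 hpf. Of all 13404 genes tested, 10.3% were higher and 12.1% lower, against 5 of 5 members higher and 0 lower. The median log2 change of the members was 5.85, beside 0.04 over all genes and a 95th percentile of 3.62. The tests were edgeR's quasi-likelihood test on counts with Benjamini-Hochberg adjustment over all genes tested.

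The germ-layer genes that surround these factors moved over the same interval as follows. Of 10 endoderm inducers, 7 were higher and 1 lower, and the median log2 change was 2.83. Among these were eomes, a T-box factor, at 8.14 (SE 0.33), and the Nodal ligand genes nodal at 7.69 (SE 0.58), nodal1 at 7.23 (SE 0.63) and nodal2 at 6.43 (SE 0.31). Vegt rose by 1.04 (SE 0.12) and foxh1, the Nodal partner factor, fell by 1.36 (SE 0.12). Counts per gene do not tell maternal from zygotic vegt RNA apart. Gdf3, a TGF-beta ligand, and nodal6 rose by 3.88 and 1.44. All 8 tested genes of 9 downstream endoderm regulators were higher, with a median of 6.88. They included gata4 at 9.42 (SE 0.49), foxa4 at 9.05 (SE 0.57) and gata6 at 5.47 (SE 0.23). The others were gata5, foxa1, foxa2, hhex and the secreted antagonist gene cer1, between 1.59 and 9.02. Of 11 mesoderm and organizer genes, 8 of 9 tested were higher, among them t (brachyury) at 9.87 and gsc at 6.53, and the median was 6.53. Of 8 ectoderm genes 7 were higher, among them tfap2a at 8.18 and sox2 at 6.31, and the median was 6.10. The rise was thus seen in lists of every germ layer.

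**Figure D2:**
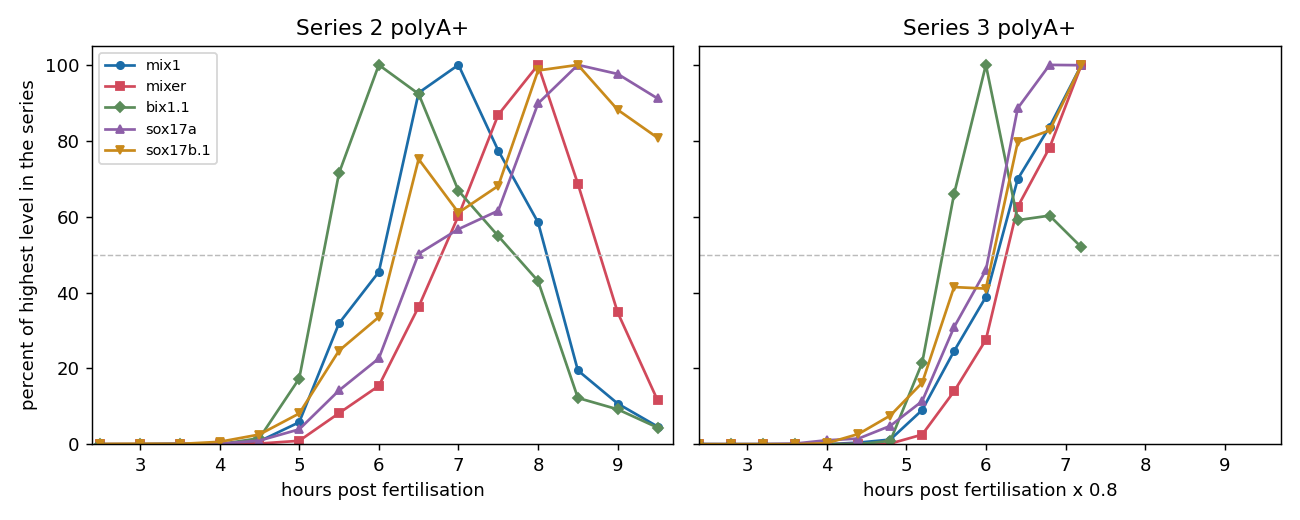
Mean polyA+ level of each gene as percent of its highest level in the series, against hours post fertilisation in Series 2 and hours multiplied by 0.8 in Series 3. In Series 2 bix1.1 crosses the dashed 50% line first, at 5.30 h, and the sox17 genes stay high while the others drop.

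Ordered by the time at which the level first crossed 50% of its highest value in Series 2, bix1.1 came first at 5.30 hpf. It was followed by mix1 at 6.05 hpf, sox17b.1 at 6.20 hpf, sox17a at 6.50 hpf and mixer at 6.79 hpf. In Series 3 the crossings, in hours multiplied by 0.8, were 5.46 for bix1.1, 6.04 for sox17a, 6.09 for sox17b.1, 6.14 for mix1 and 6.26 for mixer. Bix1.1 came more than 30 min before its next neighbour in both polyA+ series. The other neighbours lay closer than this sampling interval and cannot be ordered. In the hourly Ribo-Zero libraries the crossings lay between 7.14 and 7.35 hpf, with bix1.1 at 7.28, and bix1.1 did not come first. In Series 3 most members were highest in the last or next to last library, so that the level used as the maximum may not be one.

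The first point from which every later library held at least 10 counts was 4.0 hpf for sox17a and sox17b.1 in Series 2, 4.5 hpf for mix1 and mixer, and 5.0 hpf for bix1.1. This order depends on the limit. At 4.0 hpf sox17a had 12 counts, sox17b.1 10 and mix1 5. With 30 counts in place of 10, mix1 came at 4.5 hpf and sox17a at 5.0 hpf. A run rule for a rapid sustained rise was also applied, built after the one in the study's methods. The sign of the intercept of its chance step could not be read with certainty. It was first taken as 0.5, but -0.5 came much closer to the study's count of early onsets. The onsets at 0.5 below are therefore provisional, and those at -0.5 follow them. The rule asks for at least 3 successive points, each step above a chance step that grows with the level, and a fold of at least 10 after adding 10 normalised reads. In Series 2 it placed the onset of mix1, mixer and sox17a at 4.0 hpf, with folds of 187, 833 and 45.9, and that of bix1.1 at 4.5 hpf, with a fold of 21.7. Sox17b.1 did not pass at this intercept. Of all gene rows 1.53% passed, against 4 of 5 members. In Series 3 the onsets were 5.0 hpf for mix1, 5.5 hpf for sox17a and 6.0 hpf for mixer and bix1.1, with folds of 2074, 18.5, 304 and 31.5. There 1.62% of all gene rows passed, again against 4 of 5 members. In Series 1, 0.156% of gene rows and 0 of 5 members passed. The number of gene rows that passed in Series 1 was 34. It went to 565 with an intercept of -0.5, much closer to the post-fertilisation wave of the study. All 5 members then passed in Series 2, sox17b.1 from 4.0 hpf, and in Series 3, sox17b.1 from 5.0 hpf. More of all gene rows passed as well, 823 of 21750 in Series 2 and 764 of 20193 in Series 3. The Series 2 onsets of mix1, mixer, sox17a and bix1.1 stayed, with folds of 584, 1382, 320 and 30.1. Sox17b.1 had a fold of 52.1 there. In Series 3 the onset of mixer moved to 5.0 hpf (fold 2956) and that of sox17a to 4.5 hpf (fold 292). With the chance step taken at the mean level of both points, mix1 started at 6.0 hpf in Series 3 and sox17a no longer passed there. Only mix1 and bix1.1 passed in Series 2. Of all gene rows, 124 of 21750 in Series 2 and 144 of 20193 in Series 3 passed at that setting.

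After 6.5 hpf the members parted in Series 2. A straight line in time over the 8 libraries from 6.5 to 9.5 hpf gave -1.25 log2 units per hour for mix1 (SE 0.18, adjusted p = 8.60e-05) and -1.24 for bix1.1 (SE 0.17, adjusted p = 4.57e-05). It gave 0.52 for sox17a (SE 0.06, adjusted p = 2.56e-05) and 0.28 for sox17b.1 (SE 0.08, adjusted p = 0.00773). The levels of mixer went up and then down within the window, and its line was at -0.05 (SE 0.30, 95% interval -0.71 to 0.60, adjusted p = 0.880). Of all 13687 genes tested 33.6% were higher and 36% lower with time, against 2 higher and 2 lower of the 5 members, so that the count alone does not set the members apart. Here edgeR used time points in place of replicates, and the p-values rest on the scatter about a straight line.

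A window from 8.0 to 9.5 hpf, chosen after the levels had been seen, gave mixer -1.91 log2 units per hour by edgeR (adjusted p = 0.00222). In it the sox17a slope was 0.15 (adjusted p = 0.413) and that of sox17b.1 was -0.06 (adjusted p = 0.771), and no rise was called for either from 8.0 hpf on.

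The surrounding lists also moved in different directions in this window of Series 2. Of the 10 endoderm inducers, 9 fell and 0 rose over 6.5 to 9.5 hpf, with a median of -0.65 log2 units per hour. The slope of nodal6 was -2.02 (SE 0.13), that of nodal2 -1.80 (SE 0.13), that of nodal5 -1.66 (SE 0.35) and that of nodal1 -1.37 (SE 0.12). Those of gdf3, eomes, nodal, foxh1 and vegt were -0.70, -0.61, -0.54, -0.35 and -0.25, and smad2 was at -0.19 with an adjusted p of 0.0633 in edgeR. All 8 tested downstream regulators rose, with a median of 1.14. Cer1 rose by 1.81 (SE 0.41), foxa1 by 1.66 (SE 0.14), foxa2 by 1.47 (SE 0.14) and gata5 by 1.18 (SE 0.27). The remaining 4, gata4, gata6, foxa4 and hhex, rose by 0.28 to 1.11. Mix1 and bix1.1 had the sign of the inducers here and sox17a and sox17b.1 that of the downstream regulators, while mixer had no called slope. The lists were chosen with earlier results of these data known, so a shared sign is a description only. Of all genes tested, 33.6% rose and 36% fell. Of 10 tested mesoderm and organizer genes 6 rose and 1, gsc, fell, with a median of 0.56, and of 8 ectoderm genes 5 rose, with a median of 0.40.

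The balance between neighbouring copies also shifted. In the replicates of Series 2 at 4.5 hpf, mixer made up 37.5% (95% Wilson interval 28.8 to 47.1) and 18.9% (12.6 to 27.4) of the summed counts of mixer and mix1, on 104 and 106 counts, so that no start of the course can be set. It made up 20.997% at 5.0 hpf (18.1 to 24.3) and 36.6% at 6.0 hpf (35.5 to 37.8). It made up 41.4% and 38.6% in the replicates at 6.5 hpf, 50.7% at 7.0 hpf, 74.5% at 8.0 hpf and 85.7% at 8.5 hpf (85.0 to 86.4). At 9.5 hpf the share was 81.0% (79.3 to 82.6). In Series 3 polyA+ it went from 12.2% at 6.0 hpf (8.13 to 17.9) to 49.9% at 9.0 hpf (49.1 to 50.7), which is 7.2 h when scaled. In Ribo-Zero it was 20.4%, 34.7% and 36.3% at 6.0, 7.0 and 8.0 hpf. The shares depend on the lengths of both transcripts, so only their course in time can be read. The intervals cover counting error only, and the replicates at 6.5 hpf differed by more than their own intervals.

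**Figure D3:**
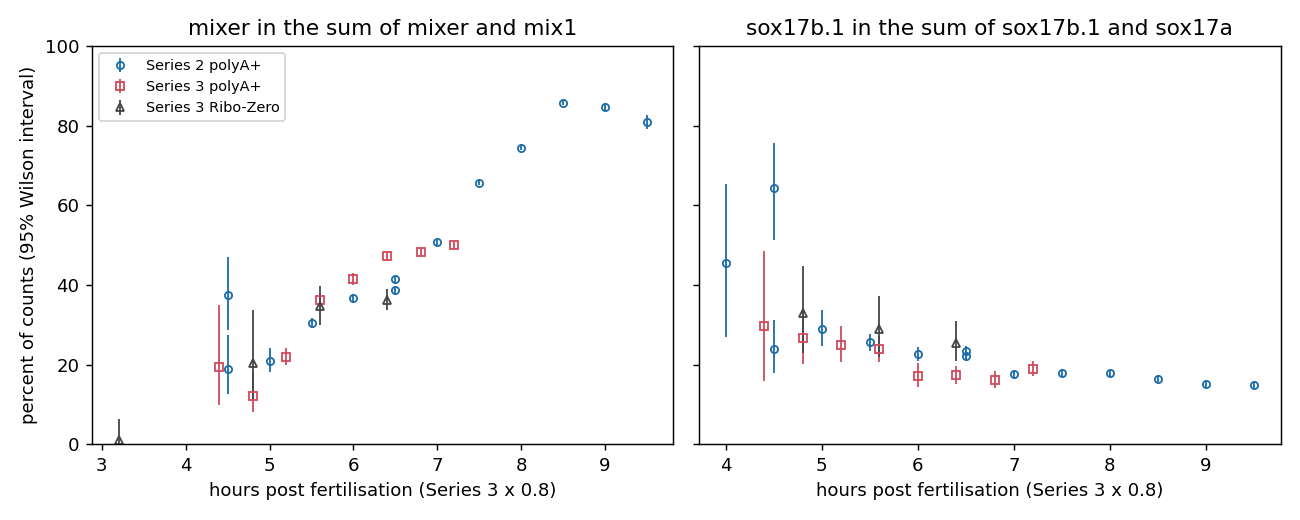
Percent of counts taken by mixer in the sum of mixer and mix1 (left) and by sox17b.1 in the sum of sox17b.1 and sox17a (right), 1 symbol per library with its 95% Wilson interval, against hours post fertilisation (multiplied by 0.8 in Series 3). The mixer share climbs from 20.997% at 5.0 hpf to 85.7% at 8.5 hpf in Series 2, while the sox17b.1 share drifts from 28.9% to 14.9%.

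The share of sox17b.1 in the sum of both sox17 genes was 64.3% and 23.9% in the replicates at 4.5 hpf, where only 56 and 159 counts were summed. It was 28.9% at 5.0 hpf (24.6 to 33.7), 22.1% and 23.5% at 6.5 hpf, 17.8% at 8.0 hpf and 14.9% at 9.5 hpf (14.1 to 15.7). In Series 3 polyA+ it was 26.7% at 6.0 hpf and 18.9% at 9.0 hpf (17.1 to 20.8). In the Ribo-Zero library at 8.0 hpf it was 25.5% (20.8 to 30.9), against 17.3% (15.2 to 19.7) in the polyA+ library of the same RNA.

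Levels of mix1 and mixer went higher in Series 3 than in Series 2. In Series 3 polyA+ libraries mix1 was 126 at 5.5 hpf, 367 at 6.0 hpf, 2675 at 6.5 hpf, 7277 at 7.0 hpf and 11515 at 7.5 hpf. It was then 20729 at 8.0 hpf, 24817 at 8.5 hpf and 29651 at 9.0 hpf, and was still highest in the last library. Mixer was 30.4 at 5.5 hpf, 51.0 at 6.0 hpf, 749.9 at 6.5 hpf, 4117 at 7.0 hpf, 8137 at 7.5 hpf, 18499 at 8.0 hpf, 23106 at 8.5 hpf and 29547 at 9.0 hpf. Neither had begun to fall.

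In Series 3 polyA+ the level of bix1.1 was highest before the end of the series. It was 7.28 at 6.0 hpf, 174 at 6.5 hpf, 535 at 7.0 hpf, 811 at 7.5 hpf, 479 at 8.0 hpf, 489 at 8.5 hpf and 421 at 9.0 hpf, on 73 to 168 counts from 6.5 hpf on. The highest point rests on 1 library of 168 counts, lay 1.93-fold above the last and falls at 6.0 h when scaled. In Ribo-Zero libraries of the same RNA bix1.1 went the other way between 7.0 and 8.0 hpf, from 145 to 473, where polyA+ went from 535 to 479. Sox17a was 267 at 6.0 hpf, 1699 at 7.0 hpf, 4880.1 at 8.0 hpf, 5509 at 8.5 hpf and 5504 at 9.0 hpf. Sox17b.1 was 97.1, 531, 1022, 1061 and 1282 at the same times. Both sox17 genes were at or close to their highest level in the last library.

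At the last point of Series 3, 7.2 h when scaled, mix1 stood 4.03-fold and mixer 3.02-fold above the interpolated level of Series 2. Bix1.1 stood 1.21-fold, sox17a 1.52-fold and sox17b.1 1.65-fold above it. Over 8430 genes the median ratio was 0.735, with a 5th percentile of 0.150 and a 95th of 2.91. At 6.0 scaled h the ratios were 3.13 for mix1, 3.83 for mixer and 1.45 for bix1.1, beside an all-gene median of 0.701 and a 95th percentile of 3.09. Each ratio compares 1 library with 1 or 2 and has no replicate check.

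Over the 5 Series 3 polyA+ libraries from 7.0 to 9.0 hpf, 4 of 5 members rose in edgeR's test of a straight line, and 8.6% of the 10130 genes tested were higher and 5% lower. The slopes were 1.51 log2 units per hour for mixer (SE 0.19, adjusted p = 0.000129) and 1.102 for mix1 (SE 0.15, adjusted p = 0.000219). They were 0.97 for sox17a (SE 0.18, adjusted p = 0.00242) and 0.76 for sox17b.1 (SE 0.18, adjusted p = 0.0119). Bix1.1 was at -0.24 (SE 0.21, 95% interval -0.68 to 0.21, adjusted p = 0.558). The median of the members was 0.97, equal to the 95th percentile of all genes, 0.97. Without the 7.0 hpf library sox17a was at 0.69 (adjusted p = 0.123) and sox17b.1 at 0.75 (adjusted p = 0.149), and without the 7.5 hpf library sox17b.1 had an adjusted p of 0.0514. Over the same libraries 3 of 9 tested inducers rose (vegt, nodal1 and nodal2) and foxh1 fell, with a median of 0.31, and 5 of 6 tested downstream regulators rose (gata4, gata6, foxa1, foxa4 and hhex), with a median of 1.59. Of the mesoderm and organizer genes 7 of 9 tested rose, and of the ectoderm genes 6 of 8, with medians of 0.65 and 0.65.

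The study split the RNA of Series 3 to tell new transcription from changes in polyA tail, since Ribo-Zero libraries hold RNA with or without a tail. Ribo-Zero levels of all 5 members were higher at each hour from 6.0 to 8.0 hpf than at the hour before. At 6.0, 7.0 and 8.0 hpf mix1 was 99.2, 1251 and 4953, and mixer was 25.4, 664 and 2827. Sox17a was 114, 483 and 1381, sox17b.1 was 55.9, 197 and 473, and bix1.1 was 20.3, 145 and 473. At 5.0 hpf mix1, mixer and bix1.1 had 0 counts in Ribo-Zero, which allows up to 9.79 normalised reads. Every member was thus higher at 8.0 than at 6.0 hpf in both kinds of library.

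Over the hourly points from 5.0 to 8.0 hpf (4 libraries of each kind), 4 of 5 members took a larger part of the polyA+ than of the Ribo-Zero counts, where 35.5% of the 11382 genes tested were higher and 36.4% lower in polyA+. The log2 difference was 3.07 for mixer (SE 0.69, adjusted p = 0.00270), 2.81 for mix1 (SE 0.59, adjusted p = 0.00191), 2.26 for sox17a (SE 0.25, adjusted p = 2.85e-05) and 1.69 for sox17b.1 (SE 0.46, adjusted p = 0.00835) in edgeR. Bix1.1 was at 1.65 (SE 0.81, 95% interval -0.19 to 3.48, adjusted p = 0.0953). The median of the members was 2.26 beside -0.01 over all genes, whose 95th percentile was 2.54. With the time point as a block, for the split RNA, 4 members stayed higher, with mix1 at 2.82 (SE 0.22) and mixer at 3.13 (SE 0.35). Without the Ribo-Zero library at 8.0 hpf sox17b.1 was at 1.26 (adjusted p = 0.0578), and without the polyA+ library at 6.0 hpf bix1.1 was at 1.99 (adjusted p = 0.0335). With DESeq2's test mix1 had an adjusted p of 0.0518. Of the tested inducers 7 of 8 were higher in polyA+, of the downstream regulators 2 of 5 (gata4 and foxa4), of the mesoderm and organizer genes 7 of 9 and of the ectoderm genes 4 of 8, with medians of 1.76, 1.25, 1.85 and 1.53.

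At single hours the polyA+ to Ribo-Zero ratio of mixer was 2.00, 6.20 and 6.54 at 6.0, 7.0 and 8.0 hpf, and that of mix1 was 3.70, 5.82 and 4.18. Sox17a was at 2.33, 3.52 and 3.53, sox17b.1 at 1.74, 2.69 and 2.16, and bix1.1 at 0.358, 3.68 and 1.01. The median over genes with at least 100 normalised reads in both was 0.895, 0.808 and 0.712. The ratio of bix1.1 was below that median at 6.0 hpf, on 3 against 8 counts, and above it at 7.0 and 8.0 hpf.

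No member was called for a difference in the rate of the rise between the kinds of library. For the difference of slopes over 5.0 to 8.0 hpf without a time block, edgeR called 0 of 5 members and DESeq2 called 0. In this edgeR fit 0 members had an unadjusted p below 0.05, where 3.83% of all genes were higher and 1.65% lower. The differences were 1.05 log2 units per hour for mixer (95% interval -0.96 to 3.06, adjusted p = 0.510), 0.56 for mix1 (-1.002 to 2.13), 0.45 for sox17b.1 (-0.66 to 1.57), 0.38 for sox17a (-0.14 to 0.89) and 0.45 for bix1.1 (-2.15 to 3.05). In this unpaired fit, all intervals but that of sox17a leave room for a difference of more than 1 log2 unit per hour. With the time point as a block, for the split RNA, mixer was at 0.737 (95% interval 0.0804 to 1.394, adjusted p = 0.154 in edgeR). Mix1 was at 0.249 (-0.226 to 0.724), which leaves no such room. With the block, the intervals of mixer, bix1.1 and sox17b.1 still leave it. All but that of mixer included 0. In the unpaired fit, scaling with DESeq2's size factors moved the part of called genes with the steeper polyA+ slope from 69.9% to 58.7%. Of the surrounding lists hhex was called with a steeper polyA+ slope (1.55, adjusted p = 0.0317 in edgeR) and sox3, an ectoderm gene, with a flatter one (-0.74, adjusted p = 0.0130), and in the inducer and mesoderm lists 0 genes were called, with medians of 0.11 and 0.00.

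**Figure D4:**
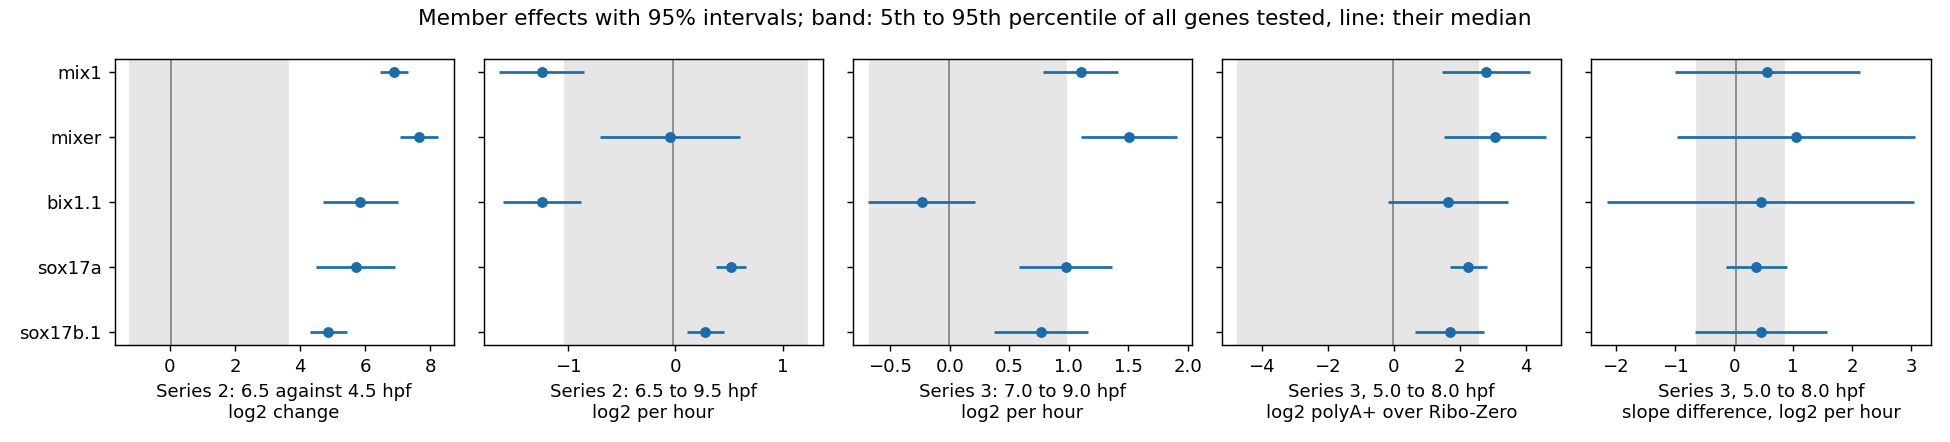
Log2 effect of each gene with its 95% interval in the 5 tests, on a separate scale in each panel. The grey band spans the 5th to 95th percentile of all genes tested and the line is their median. All 5 genes lie right of the band at 6.5 against 4.5 hpf, where the 95th percentile was 3.62, and mix1 and bix1.1 lie left of it over 6.5 to 9.5 hpf.

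Mix1 had 1 value that stood apart from its neighbours in time. In the Ribo-Zero library at 4.0 hpf it had 85 counts, or 345 normalised reads, against 10.97 at 3.0 hpf and 0 at 5.0 hpf. The polyA+ library of the same RNA had 2 counts. Mixer had 1 count in that Ribo-Zero library, and bix1.1, sox17a and sox17b.1 had 0. Of the 20193 gene rows, mix1 was the only 1 that reached at least 100 normalised reads at a single Ribo-Zero hour from 1.0 to 7.0 hpf with at most 20 at both neighbouring hours. This screen was not among the planned analyses. Mix1 meets its limits by the values above, and no other limits are given here. The tests above use no library before 4.5 hpf.

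Finally the profile of each member was set against those of 8962 named genes with at least 100 normalised reads at their highest point in both series, by the mean of Pearson's r on log2(normalised reads + 10) over the 15 time points of Series 2 and the 19 of Series 3 polyA+. The points share libraries and a common rise after the mid-blastula transition, so high values of r are frequent and are given as a description. The profiles most like mix1 were those of lefty, a Nodal antagonist (mean r = 0.990), ventx3.1 (0.989) and eomes (0.988). For mixer they were ventx1.2 (0.992), ventx1.1 (0.991) and foxa4 (0.990), and for bix1.1 they were gdf3 (0.978), foxh1.2 (0.978) and nodal (0.969). Sox17a was most like sox17b.1 (0.993), wnt8a (0.987) and ventx3.2 (0.986), and sox17b.1 most like wnt8a (0.995), ventx3.2 (0.994) and sox17a (0.993). Among the members themselves bix1.1 and sox17a were least alike, at 0.858, and mix1 and mixer were at 0.967. With rank correlation 0 to 1 of the 3 names was kept for mixer, bix1.1 and both sox17 genes, so these names depend on the measure.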

How the data were processed

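Reads had been mapped by the authors with Bowtie 0.12.7 to v7.1 gene models, and reads that mapped to more than 1 gene had been discarded. The deposited counts are whole reads per gene. The deposited normalised signal is the count per 25000000 counts of a library without its ribosomal row, and the levels recomputed here from the counts equalled it within a relative difference of 9.55e-09 above 50 normalised reads. The ribosomal row held 0.839% of counts in Series 1 and 2 and 4.86% in Series 3 and was left out, and other rows that name no gene were not tested.

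Groups came from series, time and library type in the labels, with replicates only at 4.5 and 6.5 hpf of Series 2. P-values elsewhere rest on the scatter of time points about a line. The members and the gene lists were chosen with earlier results of these data known. Counts were tested with edgeR 4.0.16 (R 4.3.3, TMM, quasi-likelihood, Benjamini-Hochberg adjustment over all genes tested, threshold 0.05). Genes needed at least 10 counts in as many libraries as the smaller group holds, or in 50% of the libraries for a slope, and all 5 members passed in every comparison. The SE of a log2 change is its size over the square root of F. The 95% intervals use the t distribution of the test. Depth limits the low values, where 3 counts correspond to 2.22 to 19.5 normalised reads. Wilson intervals and limits from a count of 0 cover counting error only. Alternatives were DESeq2 1.42.0, its size factors in edgeR, no filter, each library left out, a block of time point, and other settings of the onset rule. The polyA+ and Ribo-Zero libraries of a time point came from the same RNA. Over 11382 genes their deviations correlated at 0.520 to 0.705, against -0.655 to 0.545 for unlike times. The time block was therefore the paired fit, and it moved no member across the threshold.

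Named genes were every row of the family, the called genes of 4 lists (10 endoderm inducers, 9 downstream endoderm regulators, 11 mesoderm and organizer genes and 8 ectoderm genes) by counts, medians and examples, and the 3 most similar profiles of each member. A further gene of the downstream list is not reported here. Figures were drawn with matplotlib 3.10.9.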

Additional observations from a re-analysis of the deposited data

Results flagged for a closer look

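Counts were seen in libraries that enter no comparison, above the limit of 3 counts that a count of 0 allows. Mix1 had 85 counts in the Ribo-Zero library of Series 3 at 4.0 hpf, beside 2 counts in the polyA+ library of the same RNA. Sox17a reached 18 counts in Series 1, at 1.0 hpf, and 10 counts in the Series 3 polyA+ libraries to 4.0 hpf, at 2.5 hpf. What lies behind these counts was not tested.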

How the results depend on the processing

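Under the alternatives, 358 of 411 comparisons of a single value and 208 of 244 of a count were labelled unchanged. A test value had to keep its direction and side of the threshold, and a count to stay within 1.5 times. Onset and detection times had to be identical, and half-maximal times to stay within a fixed tolerance below the sampling interval. Member counts of 0 that stayed at 0 are among the unchanged ones. At 6.5 against 4.5 hpf all 5 members stayed higher in every alternative run, and the count of higher genes was 635 to 1471 with each library left out, lowest without replicate 1 at 6.5 hpf. Over 6.5 to 9.5 hpf in Series 2, mix1, bix1.1 and both sox17 genes kept their calls with any library left out, and the mixer slope was 0.06 without the 9.0 hpf and 0.39 without the 9.5 hpf library (-0.28 to 0.39 over all left-out libraries). From 8.0 to 9.5 hpf, a window added after the data had been seen, 2083 of 13745 genes tested rose and 2194 fell. Among the members 0 rose, while mix1 (-2.22), bix1.1 (-1.97) and mixer (-1.91) fell. Sox17a at 0.15 and sox17b.1 at -0.061 were not called. In Series 3 from 7.0 to 9.0 hpf, leaving out a library gave 349 to 1135 genes higher, 163 to 703 lower and 2 to 4 members higher. Of the polyA+ differences, mix1 was at 2.48 with DESeq2, and size factors moved the median of all genes from -0.01 to -0.12. The median without a filter, over 18816 genes, was -0.42. The fit with the replicate block (time point) gave 339 genes with a flatter polyA+ slope against 188 without it, and DESeq2 gave 597. The points from 6.0 to 8.0 hpf gave 68 steeper and 26 flatter. With a library left out, the slope difference turned negative for some members. It ranged from -0.35 to 0.76 for bix1.1, -0.40 to 1.83 for mix1, -0.54 to 3.37 for mixer and -0.049 to 1.17 for sox17b.1. Its genes called ranged from 0 to 955 steeper and 0 to 669 flatter, and edgeR called 0 both ways without the Ribo-Zero library at 5.0 or at 8.0 hpf, where 1270 and 1386 genes had an unadjusted p below 0.05. Bix1.1 passed the count filter in 8 of 12 alternative fits of polyA+ against Ribo-Zero. The causes were not tested.

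Among all gene rows with an onset, Series 1, 2 and 3 held 34, 333 and 328. With the intercept -0.5 they held 565, 823 and 764. With the chance step at the mean of both points they held 3, 124 and 144, and 2 members passed in Series 2, mix1 and bix1.1. With a fold of 5, Series 1 held 81. Without replicate 2 at 4.5 hpf the onset of bix1.1 was 4.0 hpf and that of sox17a 4.5 hpf. Detection times shifted by at most 1.0 h with 3 or 30 counts in place of 10, except that bix1.1 had none in Series 2 at 30 counts, since its last library holds 27. Low depth in Series 3 limits what can be seen there before 6.0 hpf.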
